A study of Mus musculus with 2 samples.

Results

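Glutamate and GABA receptor subunit genes were examined in RNA from mouse dorsal root ganglia, the clusters of sensory neuron cell bodies beside the spinal cord. The genes were taken by symbol alone, as all rows named for an AMPA, kainate, NMDA or delta glutamate receptor subunit, a metabotropic glutamate receptor, a GABA-A receptor subunit or a GABA-B receptor subunit. This gave 47 of the 23282 rows of the count files. The AEW library came from WT mice treated with Acetone/Ether/Water, a chemical way to dry the skin that evokes itch, on 5 days in a row. The Water library came from WT mice treated with water. Ganglia were collected on day 6, and RNA of 6 mice per group was pooled, read here as 1 pool and 1 library for each group. The sources used here do not give the strain, sex or age of the mice or the spinal levels of the ganglia. No difference below has a replicate check, and intervals cover counting error in these libraries only.

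Glutamate is the transmitter of sensory neurons themselves. AMPA, kainate and NMDA receptors are cation channels built from several subunits, whereas metabotropic receptors act through G proteins. GABA-A receptors are chloride channels, also built from several subunits, and they depolarise sensory neurons because these cells keep a high internal chloride concentration. GABA-B receptors are G protein-coupled dimers. On the central terminals of sensory neurons, receptors of each kind set how much transmitter is released onto the spinal cord.

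The AEW library held 14376228 counts and the Water library 9333882. The labels give the cell type as neurons, and neuronal markers were present, but so were markers of satellite glia (0.999% of AEW counts and 1.16% of Water counts for a list of 14 genes) and of macrophages (0.0389% of AEW counts and 0.0965% of Water counts for 18 genes), so both libraries are described here as whole ganglion. In such bulk RNA, fewer cells of a type and less RNA per cell cannot be told apart. Skin markers, from keratinocytes and hair follicles, also set the libraries apart: all 16 listed genes found were higher in AEW, with 1105 CPM summed in AEW and 44.4 CPM in Water, and Krt35, Dsg1a and Dsc3 were at 0 in Water. By the rule given below, 17.3% of all measured genes were called higher and 14.9% lower.

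Of the 47 genes, 33 were measured, meaning a count of at least 20 summed over both libraries, 11 had fewer counts and 3 had none. A measured gene was called higher or lower in AEW when its ratio of TMM-scaled counts per 1000000 (CPM) was at least 1.5-fold and the exact 95% interval of the ratio excluded 1. By this rule 13 of the 33 (39.4%) were higher in AEW, 1 was lower and 19 were neither. Over all 14854 measured genes, 17.3% were called higher and 14.9% lower. The median log2 ratio of AEW over Water was 0.32 for the 33 receptor genes and 0.03 for all measured genes. Of the 33, 26 lay above that general median. All 47 together took 0.0994% (0.0978 to 0.101) of the AEW counts and 0.0677% (0.0660 to 0.0694) of the Water counts.

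The genes called higher were Grik4, Grik5 and Grik1 of the kainate family, Gria4 of the AMPA family, Grin1 and Grin3a of the NMDA family, Grm3, Grm4 and Grm5 of the metabotropic family, Gabra3 and Gabrb1 of the GABA-A family, and both GABA-B genes. Summed over their members, GABA-B genes had a ratio of 1.79 (1.68 to 1.92) and kainate genes of 1.65 (1.54 to 1.76), both called higher. NMDA genes had 1.45 (1.32 to 1.60) and metabotropic genes 1.42 (1.29 to 1.56), just under the threshold. On the TMM scale the other large families were close to equality, with GABA-A genes at 1.07 (1.01 to 1.13) and AMPA genes at 1.04 (0.949 to 1.13). This contrast depended on the processing. After correction for transcript GC content the ratios were 1.31 for GABA-A, 1.22 for AMPA, 1.31 for NMDA and 1.42 for metabotropic genes. GABA-B genes then had 1.73 and kainate genes 1.66.

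These differences were set against neuronal markers. The list of 24, called pan-neuronal below, holds general neuronal genes together with genes of sensory neurons or of some of their subtypes, such as Avil, Isl1, Pou4f1, Prph, Nefh, Scn9a and Scn10a. Among them, 14 passed as higher in AEW, 0 as lower and 10 as neither, where 17.3% of all measured genes were higher and 14.9% lower. Their median log2 ratio was 0.82, and they took 1.80% of AEW counts and 1.10% of Water counts. The markers were not uniform. Rbfox3, the NeuN gene, had 214 CPM in AEW and 64.5 CPM in Water, the highest ratio of the list at 3.31 (3.03 to 3.62). Map2, for a dendritic microtubule protein, had 145 CPM in AEW and 169 CPM in Water (ratio 0.859, 0.804 to 0.918), and Celf4, for a neuronal RNA-binding protein, 168 CPM in AEW and 191 CPM in Water (0.877, 0.824 to 0.933). With both libraries scaled so that the median pan-neuronal marker was equal, 2 receptor genes, Grik4 and Grik5, were called higher (3.39% of all measured genes were), and 12 were called lower (61.0% of all were). The median log2 ratio was then -0.50 for the receptor genes and -0.79 for all measured genes. The other 11 higher calls were lost on that scale, Gabbr1 and Grik1 among them. Summed log2 ratios there were 0.0211 for GABA-B, -0.10 for kainate, -0.77 for AMPA and -0.72 for GABA-A genes. Without the 7 sensory genes named above, the 17 other markers had a median of 0.68. Scaling on those, chosen after the data were seen, again gave Grik4 and Grik5 as higher (4.34% of all measured genes were) and 7 receptor genes as lower (52.0% of all were).

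The calls were also counted under other settings. Under DESeq2 size factors, with 16.9% of all measured genes higher and 15.3% lower, the same 13 receptor genes were higher and 1 was lower. With an interval that excludes 1.5-fold, which 8.93% of all genes met upward and 7.21% downward, 7 receptor genes stayed higher (Grm4, Gabbr1, Grin1, Grm3, Grik5, Grik4 and Gabra3) and 0 lower. Without a count filter, where 15.1% of 18144 genes were higher and 14.1% lower, 15 receptor genes were higher and 4 lower.

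**Figure D1:**
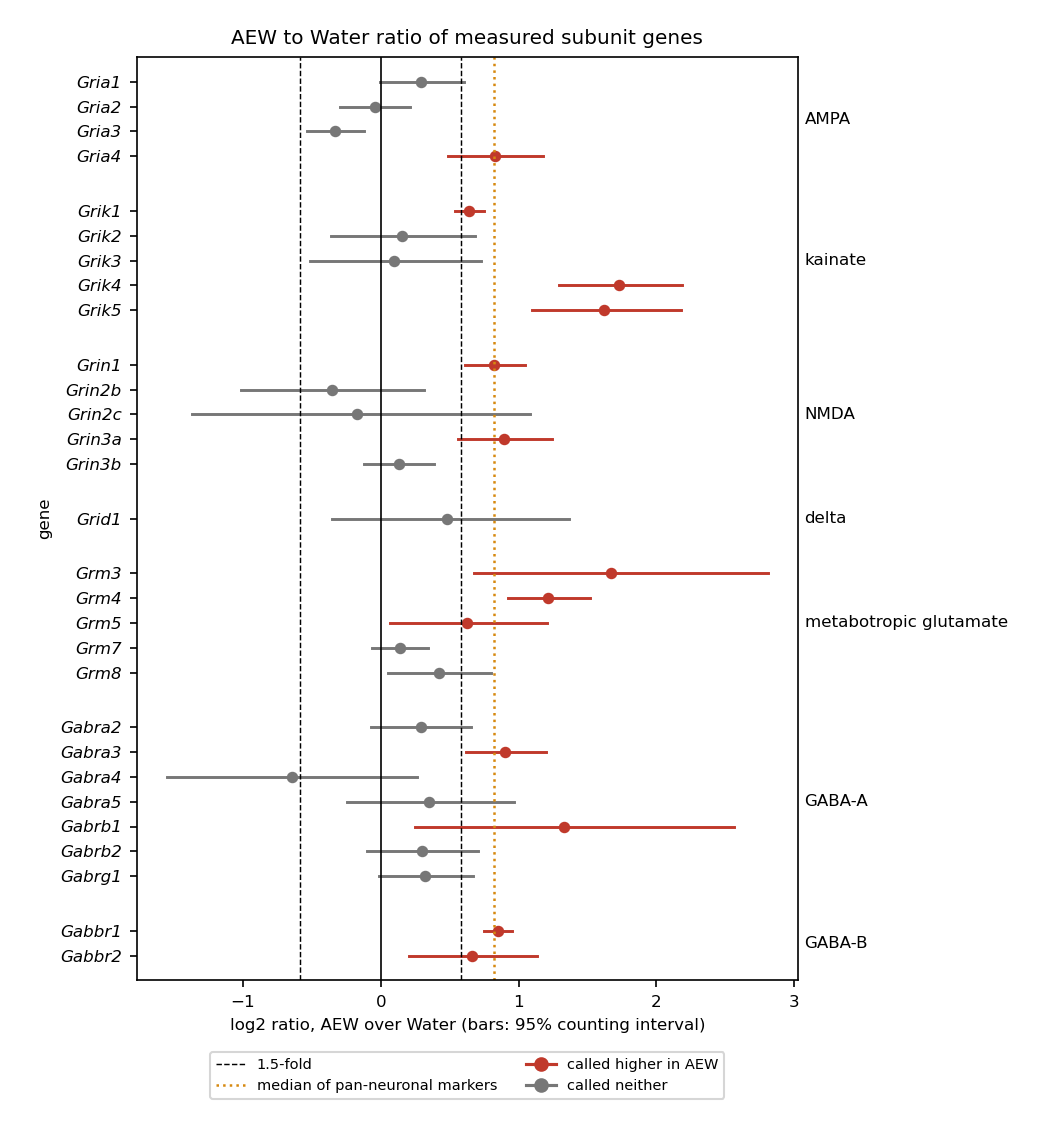
Log2 ratio of AEW over Water (x axis) for 29 of the 33 measured receptor subunit genes, grouped by family, with 95% counting intervals as bars; dashed lines mark 1.5-fold and the dotted line the median of the pan-neuronal markers at 0.82. Grik4, Grik5 and Grm4 lie right of the dotted line with their whole intervals.

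Of the 33 measured genes Grik4, of the kainate family, had the highest ratio, followed by Grm3 and Grik5. Grik4 and Grik5 encode GluK4 and GluK5, which bind kainate with high affinity and form channels only together with GluK1, GluK2 or GluK3. Grik4 (chromosome 9, 42518135 to 42944493, minus strand) had 276 counts, or 18.6 CPM, in AEW and 51 counts, or 5.63 CPM, in Water, a ratio of 3.31 (2.45 to 4.55). Grik5 (chromosome 7, 25009849 to 25072346, minus strand) had 181 counts, or 12.2 CPM, in AEW and 36 counts, or 3.98 CPM, in Water, a ratio of 3.07 (2.14 to 4.52). The AEW value was the higher one for both, and the call was kept under all 10 other settings tried. Scaled on pan-neuronal markers their log2 ratios were 0.90 and 0.80.

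Grik1 encodes GluK1, the kainate subunit known as typical of small-diameter sensory neurons. This gene (chromosome 16, 87895900 to 88290265, minus strand) had 2680 counts, or 181 CPM, in AEW and 1049 counts, or 116 CPM, in Water, a ratio of 1.56 (1.45 to 1.68). It thus passed the threshold narrowly, and its interval lay wholly below those of Grik4 and Grik5. Grik2 had 6.14 CPM in AEW and 5.52 CPM in Water (ratio 1.11, 0.779 to 1.60), and Grik3 had 4.25 CPM in AEW and 3.98 CPM in Water (1.07, 0.699 to 1.66), so both were called neither. The make-up of the family shifted accordingly. Grik4 and Grik5 together took 13.9% (12.7 to 15.1) of kainate counts in AEW and 7.12% (5.74 to 8.71) in Water, while Grik1 took 81.4% (80.1 to 82.7) in AEW and 85.8% (83.8 to 87.8) in Water. A share within a family does not depend on how the libraries are scaled. Correction for GC content acts gene by gene, and shares were not recomputed under it.

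Because Grik4 and Grik5 were the genes still called higher on the pan-neuronal scale, the RefSeq promoter windows of both (GRCm38.p6, 250 bases before to 50 after the start) are shown first. Capitals mark the GC box, GGGCGG on either strand, the element bound by Sp1. The Grik4 window is chr9:42944322-42944621 and the Grik5 window chr7:25072320-25072619, both on the minus strand:
Grik4: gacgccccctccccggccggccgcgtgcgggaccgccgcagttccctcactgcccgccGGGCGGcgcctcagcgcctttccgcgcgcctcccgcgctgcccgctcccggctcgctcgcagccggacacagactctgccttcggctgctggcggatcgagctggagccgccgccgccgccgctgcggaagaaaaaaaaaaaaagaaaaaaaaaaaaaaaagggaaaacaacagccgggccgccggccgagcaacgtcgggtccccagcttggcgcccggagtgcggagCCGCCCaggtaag
Grik5: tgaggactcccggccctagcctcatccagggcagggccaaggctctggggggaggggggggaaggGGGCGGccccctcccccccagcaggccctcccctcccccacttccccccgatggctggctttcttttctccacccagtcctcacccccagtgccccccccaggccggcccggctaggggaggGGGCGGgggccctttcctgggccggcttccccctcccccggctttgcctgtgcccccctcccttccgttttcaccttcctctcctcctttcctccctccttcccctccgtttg
Each window held 2 GC boxes. They differed in CpG dinucleotides, with 42 in Grik4 and 10 in Grik5. The table had 39 windows for 32 of the 47 genes. A GC box was found in 6 of 11 windows of genes called higher, 8 of 17 windows of genes called neither and 35.7% of all 32851 promoters of the same length. The full cAMP response element, TGACGTCA, was in none of the 39 windows and in 1.79% of all promoters.

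AMPA receptors carry fast excitation, and the GluA2 subunit made by Gria2 keeps them impermeable to calcium. Gria4 (GluA4, a subunit with fast kinetics; chromosome 9, 4417896 to 4796234, minus strand) was the member called higher, with 282 counts, or 19.0 CPM, in AEW and 97 counts, or 10.7 CPM, in Water, a ratio of 1.78 (1.41 to 2.26). Gria2 had 22.8 CPM in AEW and 23.5 CPM in Water (ratio 0.969, 0.814 to 1.16). Gria3, the member with most counts, had 30.5 CPM in AEW and 38.3 CPM in Water (0.796, 0.690 to 0.918), below equality by its interval but short of the threshold. Gria1 had 18.6 CPM in AEW and 15.1 CPM in Water (1.23, 0.995 to 1.52). The summed level was near equal on the TMM scale, at a ratio of 1.04, and was 0.587 when scaled on pan-neuronal markers. The make-up, which no scaling of whole libraries alters, differed: Gria4 took 20.9% (18.8 to 23.2) of AMPA counts in AEW and 12.2% (10.02 to 14.7) in Water, and Gria3 33.6% (31.0 to 36.1) in AEW and 43.7% (40.2 to 47.2) in Water. For Gria2 the shares were 25.1% (22.8 to 27.5) in AEW and 26.8% (23.8 to 30.1) in Water, with overlapping intervals. After correction for GC content, which can move shares, the log2 ratios were 0.95 for Gria4, 0.31 for Gria1, 0.35 for Gria2 and -0.0268 for Gria3.

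NMDA receptors need GluN1, the product of Grin1, together with GluN2 subunits, which bind glutamate, or GluN3 subunits, which bind glycine. Grin1 (chromosome 2, 25291181 to 25319187, minus strand) had 687 counts, or 46.4 CPM, in AEW and 237 counts, or 26.2 CPM, in Water, a ratio of 1.77 (1.53 to 2.06). Grin3a (chromosome 4, 49661611 to 49845744, minus strand) had 292 counts, or 19.7 CPM, in AEW and 96 counts, or 10.6 CPM, in Water, a ratio of 1.86 (1.47 to 2.37). Grin3b had 24.9 CPM in AEW and 22.8 CPM in Water (ratio 1.09, 0.920 to 1.30).

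The GluN2 genes were scarce in both libraries. Grin2b had 46 counts in AEW and 36 in Water (ratio 0.781, 0.494 to 1.24), and Grin2c 16 in AEW and 11 in Water (0.889, 0.387 to 2.12). Grin2a had 0 counts in AEW and 8 in Water. Grin2d had 2 counts in AEW and 0 in Water. Together the GluN2 genes took 4.53% (3.51 to 5.75) of NMDA counts in AEW and 9.26% (7.05 to 11.9) in Water, against 48.7% (46.0 to 51.3) in AEW and 39.9% (35.9 to 44.0) in Water for Grin1.

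Part of the NMDA signal may be shared with genes on the opposite strand, since no source used here says whether counting used strand. Grin1 shares 1307 exonic bases with its antisense gene Grin1os, which had 537 counts in AEW and 211 in Water, a ratio of 1.55 (1.32 to 1.83). Grin3b shares 1059 exonic bases with Tmem259, which had 418 counts in AEW and 221 in Water, beside 369 in AEW and 206 in Water for Grin3b. Grin1 and Grin3b are therefore uncertain as separate genes, and so are their shares of the family.

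Delta receptors resemble the channels above but act mainly as synaptic organisers. Grid1 had 41 counts in AEW and 18 in Water (ratio 1.39, 0.782 to 2.57).

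Metabotropic glutamate receptors fall into group I, coupled to phospholipase C, and groups II and III, which inhibit adenylyl cyclase. Group III held 88.5% of metabotropic counts in AEW and 89.2% in Water. Within it, Grm4 (chromosome 17, 27422387 to 27521403, minus strand) had 460 counts, or 31.0 CPM, in AEW and 121 counts, or 13.4 CPM, in Water, a ratio of 2.32 (1.90 to 2.86). Grm7 had 38.2 CPM in AEW and 34.7 CPM in Water (ratio 1.10, 0.958 to 1.27), and Grm8 13.2 CPM in AEW and 9.83 CPM in Water (1.34, 1.04 to 1.74). Grm4 thus took 33.4% (30.9 to 35.9) of the family's counts in AEW and 20.4% (17.2 to 23.8) in Water, while Grm7 took 41.0% (38.4 to 43.7) in AEW and 52.9% (48.8 to 56.9) in Water. Grm6, known from retinal bipolar cells, had 0 counts in AEW and 6 in Water.

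Receptors of groups I and II had lower counts. Grm5, of group I, had 96 counts, or 6.48 CPM, in AEW and 38 counts, or 4.20 CPM, in Water, a ratio of 1.54 (1.05 to 2.31). Of group II, Grm3 had 52 counts, or 3.51 CPM, in AEW and 10 counts, or 1.10 CPM, in Water, a ratio of 3.18 (1.60 to 7.01), and Grm2 had 3 counts in AEW and 0 in Water. Grm3 was not measured when a summed count of at least 100 was asked for.

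**Figure D2:**
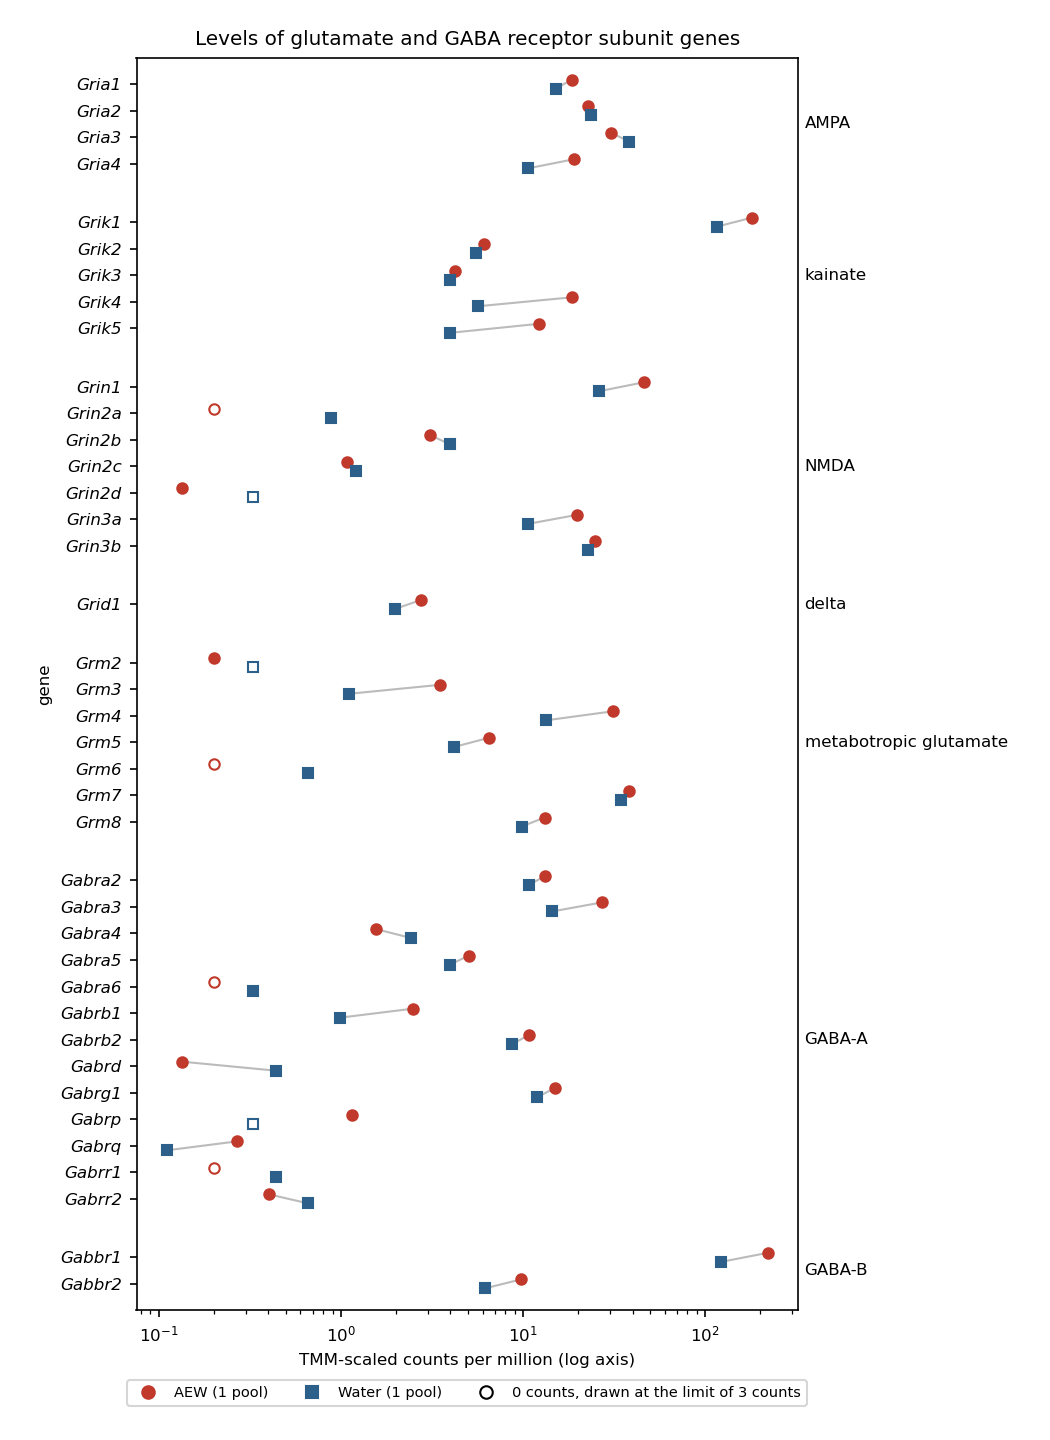
Levels of 39 of the 44 receptor subunit genes with at least 1 count, as TMM-scaled CPM on a log x axis, in AEW (circles) and Water (squares), 1 pool of 6 mice each; open symbols mark 0 counts, drawn at the limit of 3 counts. Gabbr1 and Grik1 reach over 100 CPM in both libraries, and the NMDA GluN2 genes lie below 5 CPM.

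GABA-A receptors usually combine alpha, beta and gamma subunits, and the benzodiazepine site lies between alpha and gamma. Gabra3 (chromosome X, 72432681 to 72656848, minus strand) had 401 counts, or 27.1 CPM, in AEW and 131 counts, or 14.5 CPM, in Water, a ratio of 1.87 (1.53 to 2.30). The summed alpha level had a TMM-scaled ratio of 1.03 (0.950 to 1.11), and its make-up differed. Gabra3 took 23.3% (21.3 to 25.3) of alpha counts in AEW and 12.8% (10.8 to 15.0) in Water.

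Gabra2, Gabra5 and Gabra4 were called neither. Gabra2 had 13.2 CPM in AEW and 10.8 CPM in Water (ratio 1.22, 0.954 to 1.57), Gabra5, an extrasynaptic subunit, 5.06 CPM in AEW and 3.98 CPM in Water (1.27, 0.845 to 1.95), and Gabra4 1.55 CPM in AEW and 2.43 CPM in Water (0.639, 0.340 to 1.20). Gabra6, known from cerebellar granule cells, had 0 counts in AEW and 3 in Water. Among beta subunits Gabrb2 had 10.7 CPM in AEW and 8.73 CPM in Water (1.23, 0.933 to 1.63). Gabrb1 was called higher on few counts, with 37 in AEW and 9 in Water, a ratio of 2.51 (1.19 to 5.92), and in an AEW library thinned to the depth of the Water library the ratio was 2.20 with an interval that held 1. The gamma subunit Gabrg1 had 14.9 CPM in AEW and 11.9 CPM in Water (1.25, 0.989 to 1.59).

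GABA-A subunits of rarer types were close to absent from the counts. Gabrd had 2 counts in AEW and 4 in Water, Gabrq 4 in AEW and 1 in Water, and Gabrr2 6 in AEW and 6 in Water. Gabrr1 had 0 counts in AEW and 4 in Water, and Gabre, Gabrg3 and Gabrr3 had 0 in both libraries, which, at a limit of 3 counts, allows up to 0.202 CPM in AEW and 0.331 CPM in Water. Gabrp, the pi subunit of epithelia, had 17 counts in AEW and 0 in Water, beside the skin markers given above. Their part in this value was not tested.

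Many GABA-A genes lie in clusters. On chromosome 5 the neighbours Gabrg1, Gabra2, Gabra4 and Gabrb1 had ratios of 1.25, 1.22, 0.639 and 2.51, with intervals that all overlapped, and the difference between them was not tested. On the X chromosome Gabra3 had 1.87, while its neighbours Gabre and Gabrq had under 20 counts. Gabra4 and Gabrb1 are the closest pair. Their RefSeq start sites lie 387 bases apart, with the genes overlapping at their starts on opposite strands, and 46 of their annotated exonic bases overlap. Their windows are chr5:71658259-71658558 on the minus strand for Gabra4 and chr5:71657671-71657970 on the plus strand for the first start site of Gabrb1, shown because these neighbours start so close together:
Gabra4: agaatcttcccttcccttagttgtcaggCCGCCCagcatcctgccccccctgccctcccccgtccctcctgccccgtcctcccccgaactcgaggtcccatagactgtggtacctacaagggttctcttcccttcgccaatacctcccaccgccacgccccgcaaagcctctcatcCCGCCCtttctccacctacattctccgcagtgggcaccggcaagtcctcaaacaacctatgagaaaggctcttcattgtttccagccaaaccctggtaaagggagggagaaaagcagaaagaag
Gabrb1: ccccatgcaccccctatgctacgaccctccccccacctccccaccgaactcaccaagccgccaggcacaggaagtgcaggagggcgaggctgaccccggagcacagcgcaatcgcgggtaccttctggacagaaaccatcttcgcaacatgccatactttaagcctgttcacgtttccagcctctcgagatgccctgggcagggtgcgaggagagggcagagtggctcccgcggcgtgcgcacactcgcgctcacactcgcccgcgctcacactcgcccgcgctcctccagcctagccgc
GC boxes are in capitals. The Gabra4 window held 2 GC boxes and 12 CpG, and the Gabrb1 window 0 GC boxes and 25 CpG.

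GABA-B receptors are dimers of GABBR1, which binds GABA, and GABBR2, which couples to the G protein, and they are the target of baclofen. Gabbr1 (chromosome 17, 37045966 to 37075067, plus strand) had 3280 counts, or 221 CPM, in AEW and 1111 counts, or 123 CPM, in Water, a ratio of 1.80 (1.68 to 1.93). Gabbr2 (chromosome 4, 46662305 to 46991873, minus strand) had 145 counts, or 9.78 CPM, in AEW and 56 counts, or 6.19 CPM, in Water, a ratio of 1.58 (1.15 to 2.19). Both partners were thus higher in AEW, and their balance was the same within counting error, with Gabbr1 taking 95.8% (95.04 to 96.4) of GABA-B counts in AEW and 95.2% (93.8 to 96.4) in Water. After correction for GC content the log2 ratio of Gabbr2 was 0.54 and it was no longer called.

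The promoter windows of the partners are shown because both genes were called higher, chr17:37045716-37046015 on the plus strand for Gabbr1 and chr4:46991665-46991964 on the minus strand for Gabbr2, with GC boxes in capitals:
Gabbr1: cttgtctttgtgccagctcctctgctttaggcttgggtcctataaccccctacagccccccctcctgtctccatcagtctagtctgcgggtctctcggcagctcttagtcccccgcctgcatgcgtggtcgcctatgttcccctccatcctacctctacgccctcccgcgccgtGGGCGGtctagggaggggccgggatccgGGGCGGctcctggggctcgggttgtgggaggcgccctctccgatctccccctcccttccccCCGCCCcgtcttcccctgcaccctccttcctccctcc
Gabbr2: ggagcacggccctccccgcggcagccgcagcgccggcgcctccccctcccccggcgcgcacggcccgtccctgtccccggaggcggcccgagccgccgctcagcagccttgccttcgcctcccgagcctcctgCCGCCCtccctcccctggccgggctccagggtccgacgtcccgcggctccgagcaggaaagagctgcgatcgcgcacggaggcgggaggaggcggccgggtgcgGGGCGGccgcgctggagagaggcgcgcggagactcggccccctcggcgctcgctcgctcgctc
Gabbr1 had 3 GC boxes and 18 CpG, and Gabbr2 had 2 GC boxes and 46 CpG, against a median of 7 CpG over all promoters in the table. A match is a run of letters and shows no binding.

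Counts, CPM and shares elsewhere are not divided by length. Here genes were ranked by level per length, as CPM per kilobase of the longest annotated transcript. On that scale Grik1 was highest, with 49.5 in AEW and 31.7 in Water, followed by Gabbr1 with 42.2 in AEW and 23.4 in Water. Further down the order Grm7 had 9.07 in AEW and 8.24 in Water. The sources used here do not settle whether reads came from whole transcripts or only from 3' ends, where division by length would not apply. Plain CPM was therefore also ranked. It placed Gabbr1 before Grik1 and kept 8 of the 10 highest genes. By CPM per kilobase Grik4 had 3.16 in AEW and 0.957 in Water, and Grik5 3.01 in AEW and 0.979 in Water, so both stayed far below Grik1.

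**Figure D3:**
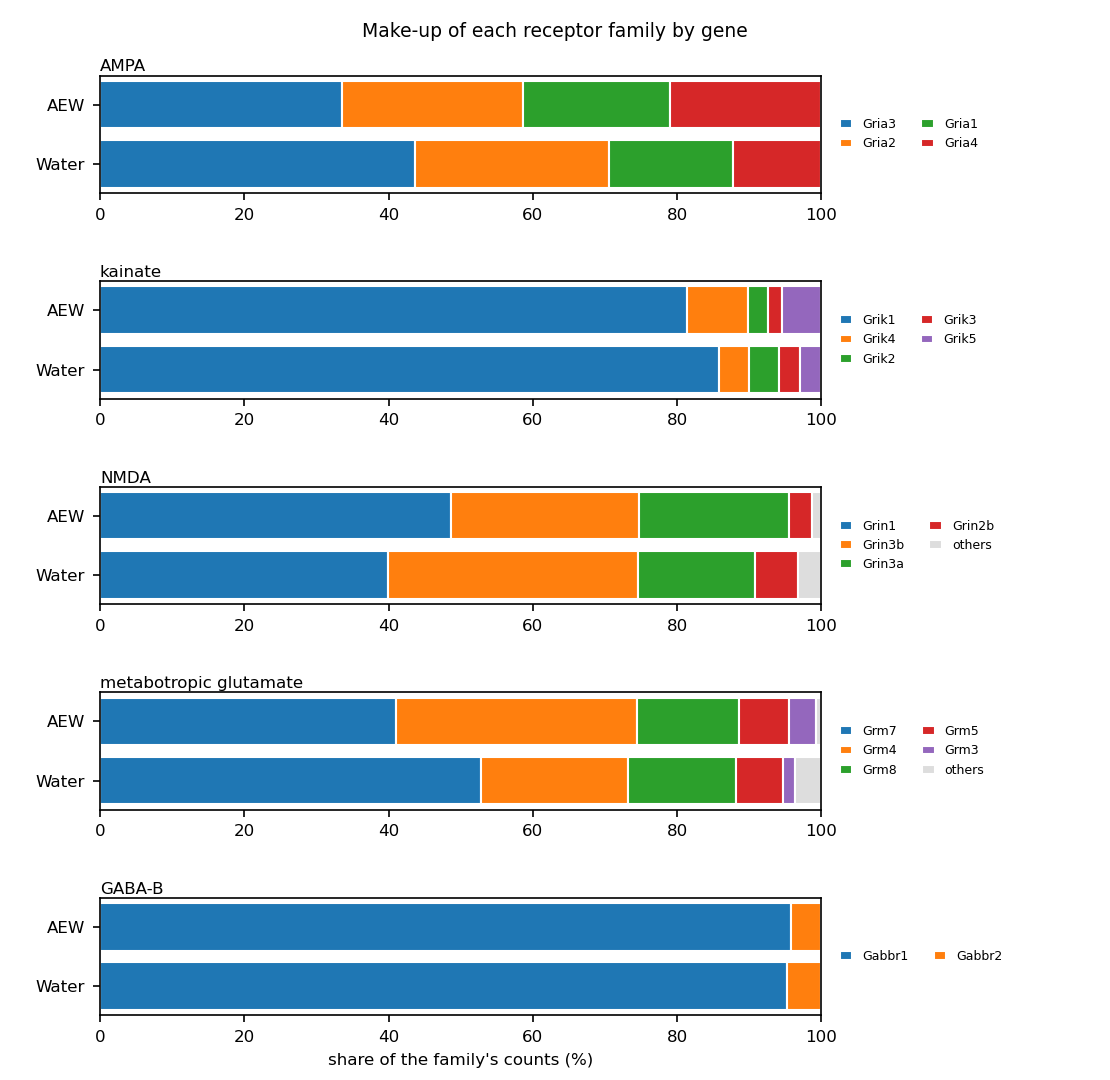
Share of each family's counts (x axis, percent) taken by each gene in AEW (upper bar) and Water (lower bar); genes not drawn by name are joined as others, and the GABA-A and delta families are not drawn. The AEW bars show more Gria4, Grik4, Grik5, Grin1 and Grm4, and the GABA-B bars are alike.

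Across families, glutamate receptor genes as a whole took 52.3% (51.5 to 53.2) of the counts of the 47 genes in AEW and 51.0% (49.8 to 52.2) in Water. Within the glutamate and the GABA genes the weight differed between families. GABA-B genes took 24.0% (23.3 to 24.7) in AEW and 18.5% (17.5 to 19.5) in Water, and GABA-A genes 23.7% (23.0 to 24.4) in AEW and 30.5% (29.4 to 31.7) in Water. Kainate genes took 23.0% (22.3 to 23.7) in AEW and 19.3% (18.4 to 20.3) in Water, and AMPA genes 9.43% (8.95 to 9.92) in AEW and 12.6% (11.8 to 13.4) in Water. NMDA genes took 9.88% (9.40 to 10.4) in AEW and 9.40% (8.69 to 10.1) in Water.

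Genes for proteins that accompany glutamate receptors were mostly called higher or neither, where 17.3% of all measured genes were higher and 14.9% lower. Of 19 measured AMPA receptor partners 10 were higher, 0 lower and 9 neither (median log2 ratio 0.66). Cnih2, a cornichon that slows AMPA channel closing, had 29.1 CPM in AEW and 9.61 CPM in Water (ratio 3.03, 2.40 to 3.86), and Nsf, which binds GluA2 and drives vesicle fusion, had 197 CPM in AEW and 105 CPM in Water (1.87, 1.74 to 2.02). Of 11 partners of kainate and NMDA receptors 4 were higher, 0 lower and 7 neither (median 0.38). Neto2, an auxiliary kainate receptor subunit, had 15.6 CPM in AEW and 19.99 CPM in Water (0.780, 0.639 to 0.953) and was called neither. Neto1, on the same list, was called higher on few counts, with 37 in AEW and 9 in Water (2.51, 1.19 to 5.92). Slc7a10, a transporter of the NMDA co-agonist serine, had 22.9 CPM in AEW and 10.4 CPM in Water (2.20, 1.75 to 2.80). Of 8 scaffolds of metabotropic and AMPA receptors 4 were higher, 1 lower and 3 neither (median 0.61). Pick1 had 33.5 CPM in AEW and 15.5 CPM in Water (2.16, 1.79 to 2.63), and Grasp, a scaffold of group I receptors, 5.67 CPM in AEW and 10.5 CPM in Water (0.540, 0.398 to 0.732).

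Of 18 GABA-A receptor partners 3 were higher, 1 lower and 14 neither (median 0.26), a share of higher calls near the 17.3% of all measured genes. Lower calls made up 14.9% of all measured genes. Lhfpl4, which links GABA-A receptors to neuroligin 2, had 331 CPM in AEW and 132 CPM in Water (ratio 2.50, 2.34 to 2.66), while Gphn, the gephyrin gene, had 19.4 CPM in AEW and 16.1 CPM in Water (1.21, 0.984 to 1.48). Of 10 GABA-B receptor partners 3 were higher, 4 lower and 3 neither (median 0.09). Rgs4, which speeds the shut-off of G proteins, had 1725 CPM in AEW and 821 CPM in Water (2.10, 2.05 to 2.16). Kctd12b, of the family of auxiliary GABA-B proteins, had 3.04 CPM in AEW and 8.28 CPM in Water (0.367, 0.248 to 0.538), and Kcnj9, a channel subunit opened by these receptors elsewhere, had 1.08 CPM in AEW and 3.20 CPM in Water (0.337, 0.171 to 0.642).

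Genes that make and move glutamate had shares of calls near those of all measured genes, 17.3% higher and 14.9% lower: of 20, 4 were higher, 4 lower and 12 neither (median log2 ratio 0.18). Slc17a6, the main vesicular glutamate transporter of sensory neurons, had 209 CPM in AEW and 183 CPM in Water (ratio 1.14, 1.07 to 1.21), and Slc17a7, a second one, 40.6 CPM in AEW and 21.6 CPM in Water (1.87, 1.59 to 2.21). Slc7a11, the cystine and glutamate exchanger, had 13.8 CPM in AEW and 31.7 CPM in Water (0.434, 0.361 to 0.521). Of 12 GABA genes 1 was higher, 3 lower and 8 neither (median -0.28). Slc32a1, the vesicular GABA transporter, had 3.24 CPM in AEW and 8.61 CPM in Water (0.376, 0.257 to 0.546), Gad1 had 1.62 CPM in AEW and 2.98 CPM in Water (0.543, 0.2999 to 0.978), and Gad2 had 2.36 CPM in AEW and 1.88 CPM in Water (1.26, 0.686 to 2.39).

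Of 11 chloride transporters and their kinases 1 was higher, 2 lower and 8 neither (median -0.41). Over all measured genes 17.3% were higher and 14.9% lower. Slc12a2 encodes NKCC1, which loads sensory neurons with chloride and so sets the direction of GABA-A currents. It had 168 CPM in AEW and 238 CPM in Water (ratio 0.706, 0.666 to 0.749), just inside the threshold. Slc12a5, the chloride exporter KCC2, had 4.39 CPM in AEW and 7.62 CPM in Water (0.576, 0.404 to 0.820). Slc32a1 and Gad1 also mark spinal cord neurons, and of 16 measured spinal cord markers 2 were higher, 5 lower and 9 neither, with 136 CPM summed in AEW and 162 CPM in Water and with Slc6a5 and Lbx1 at 0 in both libraries. The part of spinal tissue in these values was not tested.

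As the nearest comparison, subunits of nicotinic, glycine, serotonin-gated and ATP-gated channels were read the same way. Of 18 measured, 8 were higher, 0 lower and 10 neither. The median log2 ratio was 0.43. Upward calls covered 17.3% of the 14854 genes measured in these libraries, and downward calls 14.9%. P2rx6 had 12.4 CPM in AEW and 3.53 CPM in Water (ratio 3.51, 2.40 to 5.29) and Chrnb2 25.6 CPM in AEW and 9.17 CPM in Water (2.79, 2.19 to 3.58), while Glra1, a glycine receptor subunit, had 14.2 CPM in AEW and 16.2 CPM in Water (0.877, 0.707 to 1.09). The difference between these subunits and the glutamate and GABA receptor genes was not tested.

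Lists of glial, fibroblast and macrophage markers had medians below equality. Their calls stand beside 17.3% higher and 14.9% lower over all measured genes. Satellite glia markers had a median log2 ratio of -0.32 (0 higher, 2 lower of 13), Schwann cell markers of -0.18 (3 lower of 13 and 2 higher, Ngfr and L1cam), fibroblast and meningeal markers of -0.60 (0 higher, 7 lower of 12) and macrophage markers of -1.38 (0 higher, 17 lower of 18).

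**Figure D4:**
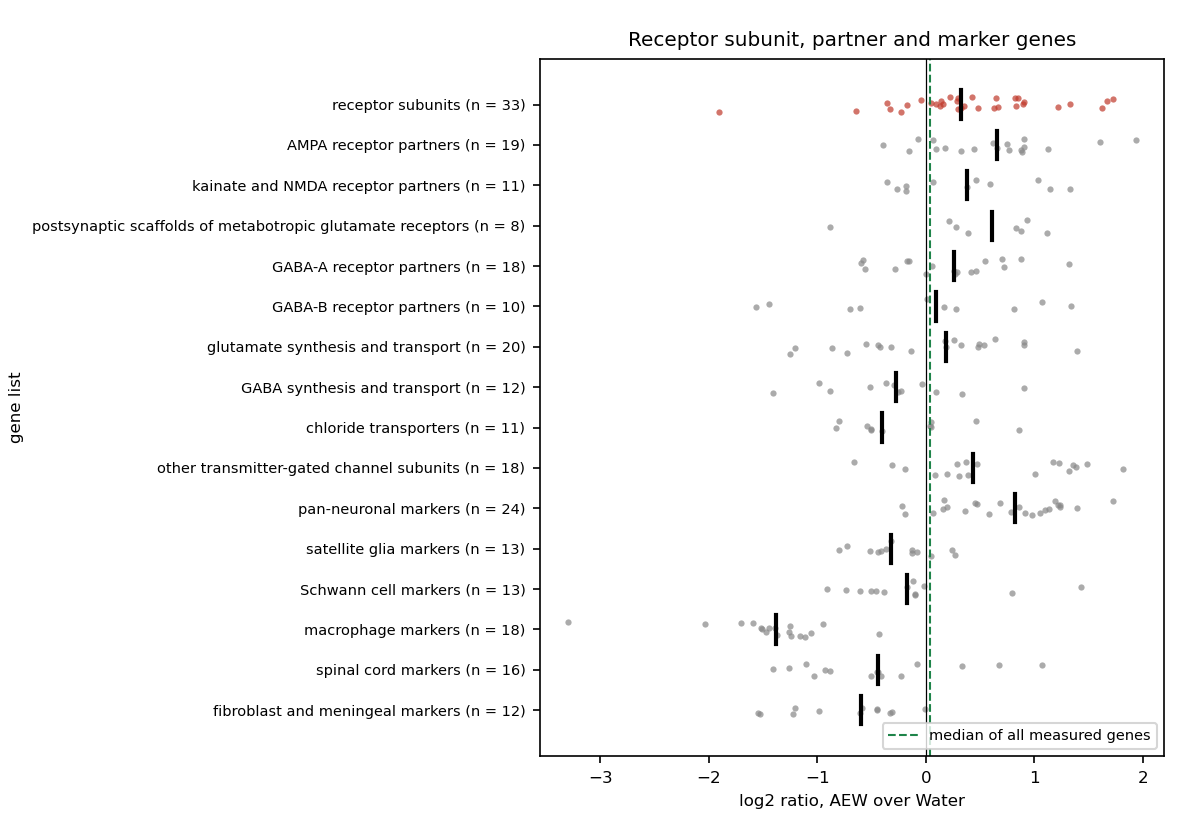
Log2 ratio of AEW over Water (x axis) for each measured gene (points) of the receptor subunits, partner lists and cell type markers, with list medians as black bars and the median of all measured genes as a dashed line; Pax2, a spinal cord marker with 23 counts in AEW and 0 in Water, has no point, and skin markers are left out. The receptor subunits, at a median of 0.32, lie between the general median of 0.03 and the pan-neuronal markers at 0.82.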

How the data were processed

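The labels' protocols name Trizol for extraction and a Lexogen QuantSeq kit for the libraries. Bowtie2, bedtools and mm10 appear in the submitters' processing notes. The sources used here do not give versions, the annotation, the use of strand or the treatment of reads with several matches. The deposited files hold whole-number counts per gene symbol, not normalized. No column belonged to another sample.

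From these counts, library sizes were scaled with TMM (edgeR 4.0.16, R 4.3.3), with factors of 1.03 for AEW and 0.970 for Water. Ratios have exact 95% conditional binomial (Clopper-Pearson) intervals and shares have Clopper-Pearson intervals. With 1 library per group no test across animals could be fitted and no p-value was computed. Intervals and limits cover counting error only. Reads carry no molecular identifiers in these files, so reads copied from the same molecule could not be removed and intervals may be too narrow. A count of 0 was taken as up to 3 counts. The 35 symbols that occurred more than once, over 79 rows, stayed in the totals (0.196% of AEW and 0.186% of Water counts) and out of calls. Calls were checked on simulated counts that held counting error only, so the check says nothing about spread between animals or pools.

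All 47 symbols matched GENCODE M21, whose coordinates are 1-based on mm10. Promoters are from RefSeq. The members, lists, calling rule and settings were chosen with earlier results of these data known. Named genes are the members, of which some are not reported here, up to 4 genes per partner list with the highest lower or lowest upper interval bounds, and Rbfox3, Slc17a6, Slc12a2, Slc12a5, Gad1, Gad2, Slc32a1 and Gphn. Grin1os and Tmem259 were found by exon overlap, and Pax2, Ngfr, L1cam, Neto1 and the 7 sensory markers were named after their values were seen. Other settings were size factors of DESeq2 1.42.0, scaling by total count or upper quartile, scaling on pan-neuronal markers with or without 7 sensory genes, totals without skin marker, keratin, haemoglobin and Rn45s rows, no filter, a summed count of at least 100, a thinned AEW library, an interval excluding 1.5-fold and a loess correction for transcript GC content.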

Additional observations from a re-analysis of the deposited data

How the results depend on the processing

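No paired analysis was possible because each group had 1 library, and no replicate could be left out. The 13 genes called higher were also called under upper quartile scaling, DESeq2 size factors, total count scaling and totals without skin, keratin, haemoglobin and Rn45s rows. In that order, 16.2%, 16.9%, 20.4% and 18.2% of all measured genes were higher, and 16.0%, 15.3%, 12.3% and 14.2% lower. Each of these settings moves every ratio by the same factor. Thinning the AEW library gave 12 higher and 1 lower (16.8% and 15.1% of all genes), a summed count of at least 100 gave 11 higher and 0 lower (17.3% and 13.6% of all), no filter gave 15 higher and 4 lower, and an interval excluding 1.5-fold gave 7 higher and 0 lower. GC correction gave 15 higher and 1 lower (16.1% and 14.2% of all), with a median log2 ratio of 0.52. It left Gabbr2 out and added Gabrg1 at 0.77, Gabra2 at 0.64 and Grm8 at 0.65. Before correction, members called higher had a median transcript GC content of 49.2% and those called neither 42.2%. GC content was that of the longest annotated transcript, and would not describe the reads if they came only from 3' ends. Corrected summed log2 ratios were 0.39 for GABA-A, 0.29 for AMPA and 0.39 for NMDA genes.

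Scaling on pan-neuronal markers gave 2 higher and 12 lower (3.39% and 61.0% of all genes). The median of the members turned to -0.50, beside -0.79 for all measured genes. Without 7 sensory genes among the markers the scaling gave 2 higher and 7 lower members (4.34% and 52.0% of all genes), with a member median of -0.36. By construction the scaling on all 24 markers lowers every log2 ratio by 0.82. Summed log2 ratios became -0.77 for AMPA, -0.72 for GABA-A, -0.28 for NMDA, -0.0874 for delta, -0.10 for kainate, -0.32 for metabotropic and -0.36 for all 47 genes, and that of GABA-B genes was 0.0211 and no longer called. Single genes became -0.67 for Grik2, -0.69 for Grin3b, -0.52 for Gabrb2, -0.53 for Gria1, -0.34 for Grid1, -0.18 for Grik1, -0.16 for Gabbr2, -0.72 for Grik3, -0.50 for Gabrg1, -0.53 for Gabra2, -0.40 for Grm8, -0.68 for Grm7, -0.47 for Gabra5 and -0.20 for Grm5.

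Other changes of sign were in genes near equality. Among the genes named here they were Grin3b at -0.16 and Gria2 at 0.35 after GC correction and Gria2 at 0.043 under total count scaling. Summed NMDA genes passed the threshold at 0.63 under total count scaling and at 0.61 with a summed count of at least 100, and metabotropic genes at 0.59 under total count scaling. The interval of summed delta genes, over 1.5-fold already, excluded 1 at 0.82 under total count scaling and at 0.87 in the thinned library. All 11 shares recomputed in the thinned library stayed inside their intervals. That library is a random part of the same AEW counts, so its shares had to lie close and give no separate check. Shares were not recomputed under GC correction. For the partner lists, settings added after the data were seen gave 1 higher and 4 lower AMPA receptor partners and 2 higher and 5 lower other transmitter-gated subunits under pan-neuronal scaling, and 0 higher in the other partner and transmitter lists, where 5 kainate and NMDA, 2 scaffold, 8 GABA-A and 6 GABA-B partners, 10 glutamate genes, 10 GABA genes and 9 chloride transporter genes were lower (61.0% of all genes were). Depth limits genes with few counts, such as Grm3, Gabrb1 and the GluN2 genes.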
